A study of Mus musculus with 9 samples.

Results

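Macrophages given the ATP-citrate lyase inhibitor BMS303141 and then lipopolysaccharide were compared here with macrophages that received nothing, which gives the state of doubly treated cells relative to rest. The comparison takes 6 of the 9 messenger RNA libraries of the study, 3 per group, and 12196 of the 12204 genes listed, those with a log2 CPM (reads per gene scaled to a common library total) of at least 0 in at least 3 of the 9 libraries. All cells were bone marrow-derived macrophages of C57/Bl6J mice, differentiated for 6 days in 20% supernatant of L929 cells, which supplies macrophage growth factor. Untreated controls received no agent, the LPS group received 10 ng/ml LPS for 4 h, and the doubly treated group received 50 µM BMS303141 for 1 h before the same 4 h of LPS. No library of the inhibitor alone is among the 9 and no vehicle is named, so what LPS and what the inhibitor contributed to a difference from rest cannot be told apart from the main comparison. The 3 libraries with LPS alone are given beside it for that reason, for some of the genes and lists. Nothing in the labels ties the replicates to separate mice or cultures. The p-values therefore reflect only how these libraries vary, and that variation may be technical.

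LPS is a component of the outer membrane of Gram-negative bacteria that macrophages sense through Toll-like receptor 4 with its partners CD14 and MD-2. The adaptor MyD88 leads from this receptor to NF-kB and the genes of cytokines and chemokines, while the adaptor TRIF leads to interferon beta, whose receptor then drives interferon-stimulated genes. ATP-citrate lyase, encoded by Acly, splits cytosolic citrate into acetyl-CoA and oxaloacetate and thereby feeds fatty acid synthesis, cholesterol synthesis and the acetylation of histones.

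The values behind all results are log2 CPM with the same distribution in every library, which is read from the values as quantile normalisation. Differences between groups are therefore relative to the other genes. Differences are given on the log2 scale with the moderated standard error (SE) of limma, and a gene is called where its adjusted p (Benjamini-Hochberg over the 12196 genes) is under 0.05. Estimated depth ran from 3180000 to 4990000 reads in untreated, from 1810000 to 3150000 in LPS and from 3510000 to 3690000 in doubly treated libraries. LPS replicate 1 was the shallowest and had 348 genes at its lowest value, against 66 to 149 in the untreated and 72 to 78 in the doubly treated libraries. All 10 macrophage markers were measured, Adgre1 (the F4/80 antigen), Csf1r and Lyz2 among them. Their CPM summed to between 8535 and 9200 in untreated, 4522 and 5457 in LPS and 5332 and 5347 in doubly treated libraries. The markers were mixed in direction: against rest 6 were called lower and 2, Cd14 and Spi1, higher in doubly treated cells. In bulk RNA, fewer cells of a type and less RNA per cell cannot be told apart.

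Of the 12196 genes 2627 (21.5%) were called higher and 3120 (25.6%) lower, 47.1% in all, and 1565 (12.8%) and 1755 (14.4%) of all genes were called with a change of at least 2-fold. Counts of list members against rest given below are to be read beside the shares of 21.5% higher and 25.6% lower. A change of at least 16-fold was called for 201 genes upward and 70 downward, while the median difference over all genes was -0.05. The 2 groups did not overlap in many genes, with 27.2% of all tested genes higher and 32.2% lower in every doubly treated library. Against LPS alone, which shares the doubly treated libraries with the main comparison, 117 genes (0.959%) were called higher and 141 (1.16%) lower. Those 258 calls became 62, 79 and 143 without BMS303141+LPS replicate 3, 1 and 2, and 160 without LPS replicate 3. LPS alone against untreated gave 2628 higher (21.5%) and 3102 lower (25.4%). With libraries centred on ribosomal protein genes the main comparison turned from more genes lower to more genes higher, with 2723 higher and 2579 lower. The split was then 59 higher and 124 lower against LPS, and 2941 higher and 2261 lower for LPS alone against untreated. The largest changes were ranked among called genes at or above the median level, without overlap between groups. Predicted genes and genes with clone names were left out. The 10 largest rises were Mmp13, Saa3, Il1b, Ptges, Acod1, Ptgs2, Il1a, Edn1, Rnd1 and Slc7a11. The 10 largest falls under the same conditions were Rgs2, Gpr65, Cx3cr1, Mef2c, Lpar6, Slc37a2, Slc43a2, Rab7b, Mertk and Cd180. All of these rises and falls were also called, in the same direction, for LPS alone against untreated. The differences there were 9.33 for Mmp13, 9.40 for Ptgs2, -6.40 for Rgs2 and -4.66 for Cx3cr1.

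**Figure D1:**
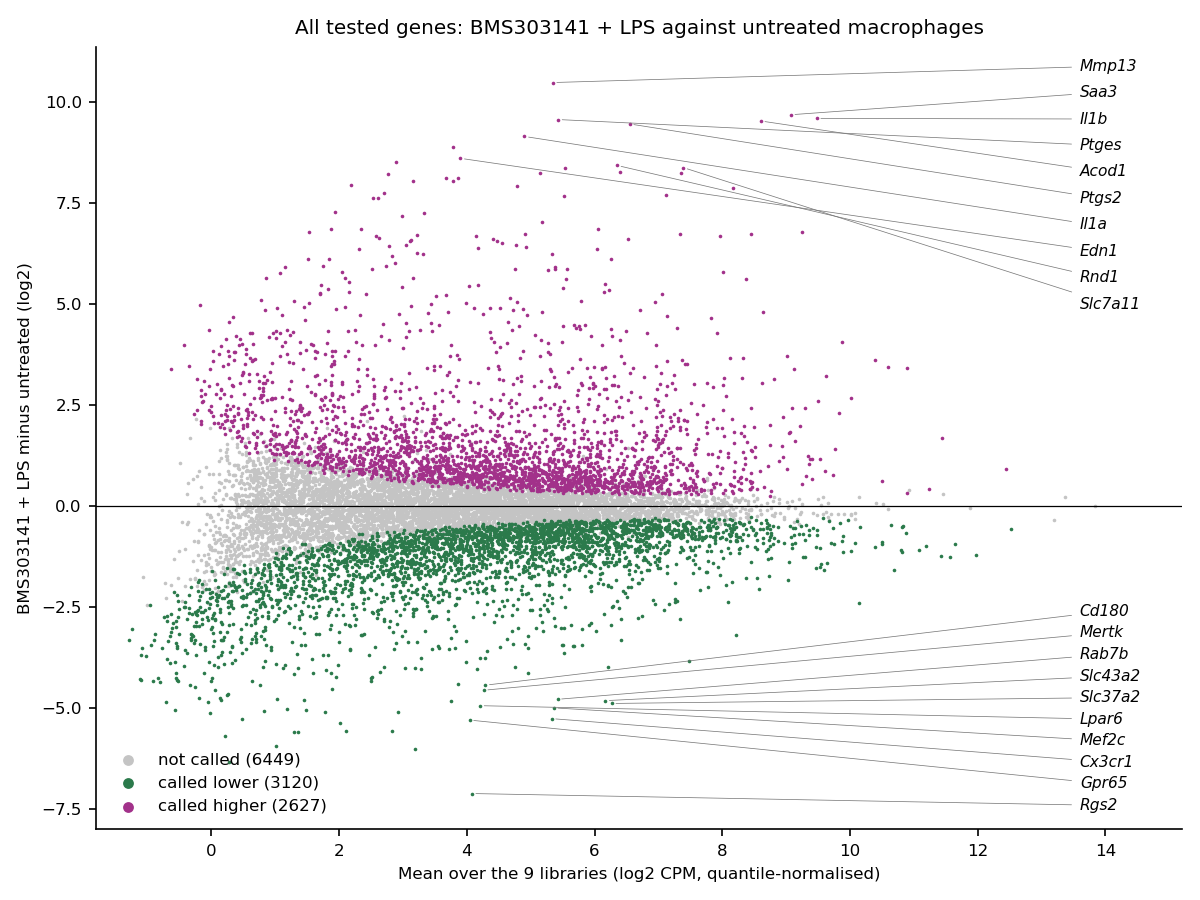
Difference between BMS303141 + LPS and untreated macrophages (y axis, log2) against the mean over the 9 libraries (x axis, log2 CPM) for the 12196 tested genes, 1 point per gene, coloured by whether limma called it. The 2627 genes called higher include Mmp13 at 10.49 and the 3120 called lower include Rgs2 at -7.11. The labelled genes are the 10 largest rises and falls at or above the median level without overlap between groups. Predicted genes and genes with clone names were left out of the labels.

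Inflammatory cytokine genes stood far above rest in the doubly treated cells. Of 19 tested members of the cytokine list 17 were called higher and 1 lower, with a median difference of 5.05. LPS alone against rest gave the same counts, with a median of 4.91. Il1b, which encodes interleukin 1 beta, was at 3.61, 3.82 and 1.69 log2 CPM in the untreated libraries 1 to 3 and at 12.84, 12.66 and 12.44 in the doubly treated ones, a 779-fold rise (9.61, SE 0.44, adjusted p = 1.17e-09). The lowest doubly treated library lay far above the highest untreated one, and untreated replicate 3 was the lowest of all. Il1a, its relative that acts as an alarm signal, rose by 9.16 (SE 0.37, adjusted p = 3.36e-10), and Il1rn, the antagonist of the interleukin 1 receptor, by 6.73 (SE 0.21, adjusted p = 2.77e-11). Tnf, the gene of tumour necrosis factor, went from 2.72, 3.33 and 3.60 log2 CPM at rest to 8.21, 8.56 and 8.03 with both treatments, a 33.2-fold rise (5.05, SE 0.22, adjusted p = 5.88e-10). All 3 doubly treated libraries were thus above all 3 untreated ones, and all were below the LPS libraries, which held 9.08, 9.68 and 9.36.

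Il12b encodes the p40 chain shared by interleukins 12 and 23. Its values were -0.79, -0.79 and -2.33 in untreated and 7.32, 7.28 and 6.24 in doubly treated libraries, a difference of 8.25 (SE 0.37, adjusted p = 7.97e-10). The gene (ENSMUSG00000004296) lies on the plus strand of chromosome 11, from 44400063 to 44414033 in GRCm38. The libraries with LPS alone held 9.79, 9.83 and 9.74, so the doubly treated cells lay between the other groups without overlap with either. Against LPS alone the difference was -2.84 (SE 0.37, adjusted p = 0.00173), called with every library left out in turn (adjusted p up to 0.015). Il6, an inducer of the acute phase response, also lay between, with -0.79, -1.58 and -0.30 in untreated, 5.91, 6.36 and 5.16 in doubly treated and 7.10, 7.97 and 7.50 in LPS libraries. It rose from rest by 6.70 (SE 0.35, adjusted p = 4.02e-09). Its difference from LPS alone was -1.71 (SE 0.35, adjusted p = 0.0217), and that of Tnf was -1.11 (SE 0.22, adjusted p = 0.0178); the call of each ended without LPS replicate 2 or 3 or without BMS303141+LPS replicate 1 or 3, with adjusted p up to 0.124 for Il6 and 0.111 for Tnf. Untreated values of Il12b, Il6, Il1a and Edn1 rest on few reads, so the sizes of their rises are imprecise.

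Il10, the gene of an anti-inflammatory cytokine, and Il1rn went the other way relative to LPS alone, as the 2 members called higher. Il1rn differed from LPS by 1.09 (SE 0.21, adjusted p = 0.0163). Without BMS303141+LPS replicate 1 or 3 no member was called higher than with LPS. Il10 was at 0.02, 0.85 and 1.82 in untreated, 4.91, 4.71 and 4.90 in LPS and 6.32, 6.40 and 6.38 in doubly treated libraries. The doubly treated libraries were the highest of the 9, 44.2-fold above rest (5.47, SE 0.33, adjusted p = 1.62e-08). Against LPS alone Il10 differed by 1.53 (SE 0.33, adjusted p = 0.0294), a call that ended without untreated replicate 2, LPS replicate 2 or 3, or any 1 of the doubly treated libraries (adjusted p up to 0.128). Il18, another member, was called higher than at rest and lower than with LPS: it held 3.85, 3.28 and 3.26 in untreated, 4.24, 4.64 and 4.25 in doubly treated and 5.69, 5.84 and 5.64 in LPS libraries. Its rise over rest was 0.91 (SE 0.19, adjusted p = 0.00174) and its difference from LPS -1.35 (SE 0.19, adjusted p = 0.00304). Edn1, which encodes the vessel-constricting peptide endothelin 1, rose by 8.62 (SE 0.23, adjusted p = 9.19e-12). Vegfa, a growth factor for blood vessels, was the member called lower, at -1.76 (SE 0.22, adjusted p = 2.17e-05). Il18 and Vegfa are named after their values were seen.

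Chemokine genes, whose products draw other leukocytes to a site, rose in 14 of 17 tested cases and fell in 2, with a median of 4.76. Cxcl2, a chemokine for neutrophils, was at 2.58, 2.84 and 2.95 in untreated and at 10.71, 11.09 and 10.22 in doubly treated libraries, a 236-fold rise (7.88, SE 0.21, adjusted p = 7.84e-12). Ccl3, which acts on monocytes and other cells, rose 104-fold (6.69, SE 0.14, adjusted p = 2.10e-12). Cxcl10, a chemokine that interferons induce, held 1.48, 0.45 and 0.34 at rest and 7.02, 7.45 and 6.51 with both treatments, a difference of 6.24 (SE 0.31, adjusted p = 2.11e-09). With LPS alone it held 7.87, 8.66 and 8.21, and the difference from it was -1.25 (SE 0.31, adjusted p = 0.0537), which did not pass the test. The 2 chemokines called lower were Cxcl14 (-2.72, SE 0.28, adjusted p = 3.84e-06) and Ccl6 (-0.74, SE 0.17, adjusted p = 0.00291), both named after their values were seen. Ccl22 had its lowest possible value in every untreated library and 1.52, 1.81 and 1.60 in the doubly treated ones, for which no fold is given.

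The promoters of Cxcl2 and Il6 are shown because both genes are known NF-kB targets among the strongest rises. Each run holds the 130 bases before the gene's start site (RefSeq, GRCm38.p6), 5′ to 3′ on the gene's strand, with matches to the NF-kB motif (GGG, any 2 bases, then TTTCC) on either strand in capitals.
Cxcl2, chr5:90903769-90903898, plus strand: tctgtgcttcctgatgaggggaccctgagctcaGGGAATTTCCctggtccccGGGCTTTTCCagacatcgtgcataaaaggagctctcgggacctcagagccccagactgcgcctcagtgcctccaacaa
Il6, chr5:30012984-30013113, plus strand: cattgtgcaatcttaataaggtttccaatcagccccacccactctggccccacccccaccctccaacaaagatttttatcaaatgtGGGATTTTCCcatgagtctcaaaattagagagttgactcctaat
Cxcl2 holds 2 matches, which begin 97 and 78 bases before the start, and Il6 holds 1 at 44 bases before it. In windows of 250 bases before the start, the motif was found in 1.51% of windows of tested protein-coding genes (80.2% of which had a window), in 2.23% of windows of genes called higher than at rest, and in 1.40% of those called lower. In the list of NF-kB subunits and feedback inhibitors, 6 of 30 windows (20.0%) held it. A match describes the letters only.

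**Figure D2:**
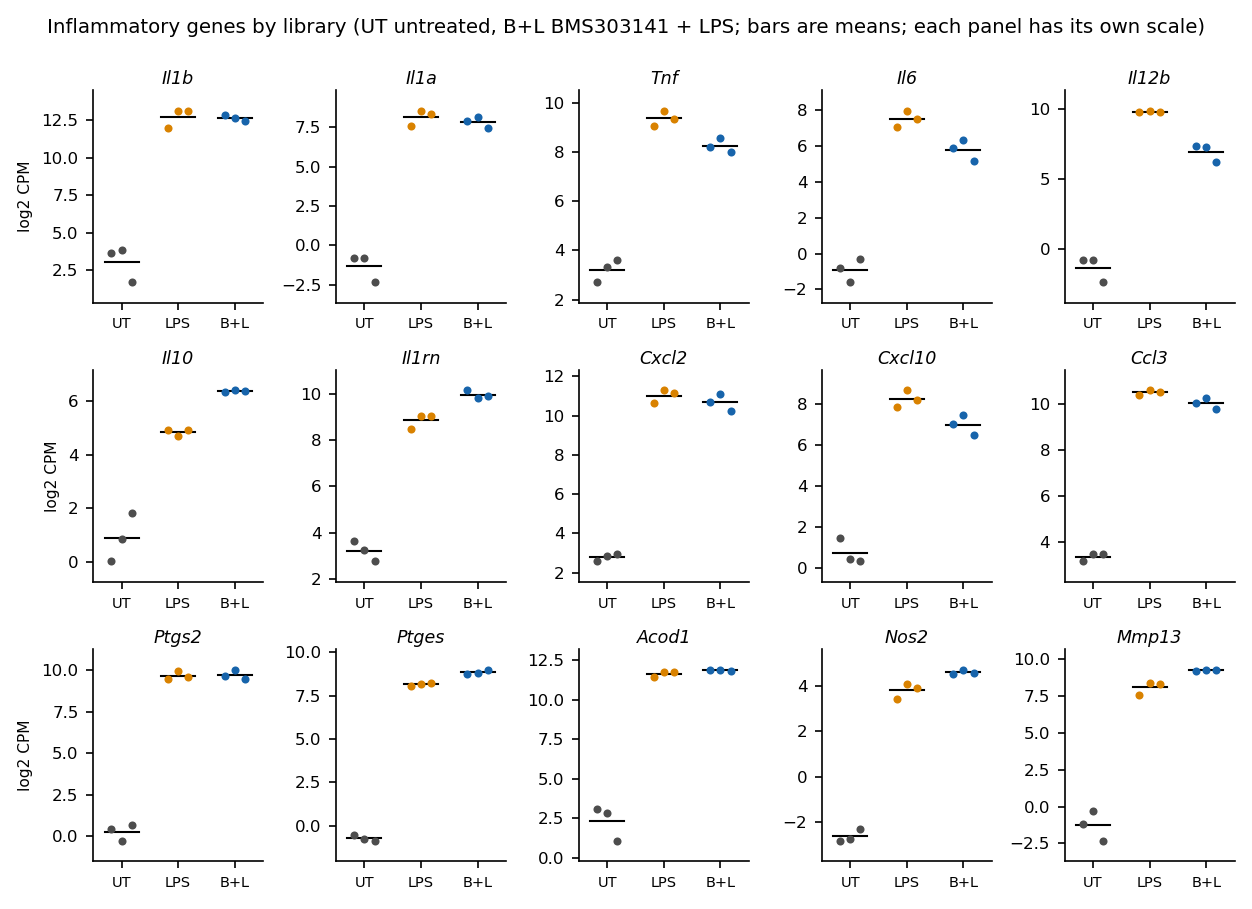
Deposited log2 CPM (y axis, a separate scale per gene) of 15 inflammatory genes in the 3 untreated (UT), 3 LPS and 3 BMS303141 + LPS (B+L) libraries; points are libraries and bars are group means. In every panel the doubly treated libraries lie above the untreated ones, and Il12b at 7.32, 7.28 and 6.24 lies below its LPS libraries while Il10 at 6.32, 6.40 and 6.38 lies above them.

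Genes for lipid mediators, itaconate, nitric oxide and antimicrobial proteins rose in 21 of 24 tested cases and fell in 2, with a median of 5.32. Mmp13, a collagenase, showed the largest rise of the genes named by level and overlap (ENSMUSG00000050578, chromosome 9, 7272514 to 7283331 in GRCm38, plus strand). It was at -1.17, -0.30 and -2.33 in untreated and at 9.21, 9.26 and 9.22 in doubly treated libraries (10.49, SE 0.37, adjusted p = 9.80e-11). The doubly treated values lay within 0.05 of each other, while the untreated ones rest on few reads. Ptgs2, the inducible cyclooxygenase of prostaglandin synthesis, held 0.45, -0.30 and 0.64 at rest and 9.67, 10.03 and 9.48 with both treatments, a 708-fold rise (9.47, SE 0.22, adjusted p = 3.59e-12). Ptges, the prostaglandin E synthase that acts after it, rose by 9.58 (SE 0.14, adjusted p = 6.38e-14). The untreated values of both Ptgs2 and Ptges rest on few reads, so the sizes of their rises are imprecise. Saa3, an acute phase serum amyloid, rose 829-fold (9.69, SE 0.52, adjusted p = 4.69e-09), and untreated replicate 3 was again its lowest library, at 1.06.

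Acod1, whose enzyme makes itaconate from a citric acid cycle intermediate, was at 3.10, 2.80 and 1.06 in untreated and at 11.89, 11.89 and 11.81 in doubly treated libraries, a 745-fold rise (9.54, SE 0.37, adjusted p = 2.07e-10). Its LPS libraries held 11.44, 11.73 and 11.73, and the difference of the doubly treated cells from them was 0.23 (SE 0.37, adjusted p = 0.814). Nos2, the inducible nitric oxide synthase, was listed at the lowest value in the 3 untreated libraries and at 4.56, 4.73 and 4.61 in the doubly treated ones, so no fold is given. Serpinb2, an inhibitor of plasminogen activators named after its values were seen, showed the same pattern with 5.11, 5.14 and 5.64. In all, 22 of the genes called higher were at the lowest value in every untreated library. The member called lower by most was Ptgs1, the constitutive cyclooxygenase, at -2.97 (SE 0.81, adjusted p = 0.00881), named after its value was seen, with few reads in the doubly treated libraries.

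Among the receptors and adaptors of Toll-like receptor signalling the direction was mixed, with 15 of 26 tested members higher, 7 lower and a median of 0.52. The share lower was near the 25.6% over all tested genes, of which 21.5% were called higher. Tlr2, a receptor for bacterial lipoproteins, rose from 4.67, 4.74 and 4.75 to 7.11, 7.37 and 7.03 log2 CPM over the 3 libraries of each group (2.45, SE 0.12, adjusted p = 2.23e-09). Tlr13, a receptor for bacterial ribosomal RNA, fell from 6.55, 6.63 and 6.63 to 3.04, 3.26 and 2.76 (-3.59, SE 0.18, adjusted p = 3.37e-09). The 3 libraries of each group lay close together for both genes. The groups did not overlap, as for 27.2% of all tested genes upward and 32.2% downward. Cd14, which hands LPS to its receptor, rose by 2.44 (SE 0.30, adjusted p = 2.04e-05), while Tlr4, the receptor, fell by 0.80 (SE 0.18, adjusted p = 0.0026); both are named after their values were seen. Tlr8, a receptor for RNA named after its values were seen, held 4.12, 4.49 and 4.88 at rest, 3.92, 3.92 and 3.27 with LPS and 2.35, 2.36 and 2.07 with both treatments (-2.24, SE 0.25, adjusted p = 8.47e-06 from rest). Its difference from LPS was -1.44 (SE 0.25, adjusted p = 0.00996), a call that ended without BMS303141+LPS replicate 3 (adjusted p up to 0.0712). Cd180, a relative of Toll-like receptors on B cells and myeloid cells, fell 21.5-fold (-4.43, SE 0.28, adjusted p = 2.35e-08).

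The NF-kB list, which holds subunits and the inhibitors that NF-kB itself induces, had 24 of 27 members higher and 1 lower, with a median of 2.65. Socs3, an inhibitor of cytokine receptor signalling, was at -0.51, -0.30 and -0.30 in untreated and at 7.61, 7.77 and 7.32 in doubly treated libraries (7.94, SE 0.19, adjusted p = 3.59e-12), with few reads behind the untreated values. Tnip1, a partner of the A20 inhibitor, rose 13.2-fold (3.72, SE 0.11, adjusted p = 1.99e-11). The subunit gene Rel held 6.61, 6.86 and 6.84 at rest, 7.60, 7.66 and 7.52 with both treatments and 8.46, 8.37 and 8.41 with LPS alone. Rel thus lay between the groups, 0.82 (SE 0.11, adjusted p = 2.74e-05) above rest and -0.82 (SE 0.11, adjusted p = 0.00173) against LPS, a call kept with every library left out. Otud1, a deubiquitinase, was the member called lower (-2.63, SE 0.47, adjusted p = 4.82e-04). Rel and Otud1 are named after their values were seen.

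Of 46 tested interferon-stimulated genes 36 were called higher than at rest and none lower, with a median of 1.32; at an unadjusted p under 0.05 the count lower was 0. In the fit of LPS alone against the same untreated libraries all 46 were called higher, with a median of 2.15. Against LPS alone, 22 of the 46 were called lower and none higher (background 1.16% lower), with a median of -0.80. That count fell to 3 without BMS303141+LPS replicate 3, to 6 without BMS303141+LPS replicate 1, and to 14 without LPS replicate 2 or 3, while the median stayed between -0.84 and -0.71. The 10 members not called against rest included Sp100, Irf7, Oas3, Stat2, Irf9, Ifit3b, Oas2, Dhx58 and Irgm1, with differences from -0.11 to 0.58. Stat2 and Irf9 encode factors that carry the interferon signal to these genes.

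Gbp5, a guanylate-binding protein that acts against intracellular bacteria, was at 1.15, 1.22 and -0.30 in untreated and at 8.85, 9.12 and 8.91 in doubly treated libraries, a 309-fold rise (8.27, SE 0.30, adjusted p = 1.17e-10). Gbp2, a relative, rose 26.5-fold (4.73, SE 0.16, adjusted p = 7.57e-11). Both were well separated from rest, and untreated replicate 3 was the lowest library for Gbp5. The untreated values of Gbp5 rest on few reads, so the size of its rise is imprecise. Mx1, a GTPase that blocks viruses, held 1.92, 1.83 and 0.85 at rest, 3.97, 4.40 and 4.05 with both treatments and 5.90, 6.22 and 5.66 with LPS. Its doubly treated libraries lay between the other groups, 2.60 (SE 0.28, adjusted p = 4.70e-06) above rest and -1.78 (SE 0.28, adjusted p = 0.00505) against LPS. Mx2 showed the same order, 2.38 (SE 0.18, adjusted p = 1.22e-07) above rest and -1.57 (SE 0.18, adjusted p = 5.49e-04) against LPS; both calls against LPS were kept with every library left out. Ifit1, which binds viral RNA, held 2.36, 2.84 and 1.69 in untreated, then 5.38, 6.07 and 4.99 in doubly treated and 6.40, 6.92 and 6.46 in LPS libraries. It rose 9.06-fold from rest (3.18, SE 0.30, adjusted p = 1.56e-06), and its difference from LPS of -1.11 (SE 0.30, adjusted p = 0.0811) did not pass. Members of the Gbp, Ifit, Mx and Oas families have similar sequences and may share or lose reads.

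The promoters of Ifit1, Isg15 and Gbp2 are shown because matches to the interferon-stimulated response element lie close to their start sites. Each run is the 130 bases before the start (RefSeq, GRCm38.p6), 5′ to 3′ on the gene's strand, with matches to the motif GAAA, any 2 bases, GAAA on either strand in capitals.
Ifit1, chr19:34640759-34640888, plus strand: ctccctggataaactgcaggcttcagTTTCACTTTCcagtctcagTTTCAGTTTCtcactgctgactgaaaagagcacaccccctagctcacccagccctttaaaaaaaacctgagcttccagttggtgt
Isg15, chr4:156200819-156200948, minus strand: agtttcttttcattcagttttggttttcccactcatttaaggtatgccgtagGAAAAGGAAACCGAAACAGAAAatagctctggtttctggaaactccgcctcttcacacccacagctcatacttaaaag
Gbp2, chr3:142620533-142620662, plus strand: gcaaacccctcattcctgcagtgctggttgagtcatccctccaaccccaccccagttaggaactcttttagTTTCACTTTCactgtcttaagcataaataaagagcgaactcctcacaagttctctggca
Ifit1 holds 2 matches, 104 and 85 bases before the start, Gbp2 holds 1 at 59 bases, and Isg15 holds 3 that overlap, at 78, 72 and 66 bases. Isg15, a ubiquitin-like modifier, rose 19.6-fold from rest (4.30, SE 0.24, adjusted p = 8.64e-09) and is named after its value was seen. The motif was found in 2.84% of the 250-base windows of tested protein-coding genes, in 3.87% of those of genes called higher than at rest and in 2.16% of those called lower. Among genes called lower than with LPS alone 16 of 141 windows (11.3%) held it, and among genes called higher than with LPS 2 of 122 (1.64%); these lists of called genes shrink when libraries are left out.

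**Figure D3:**
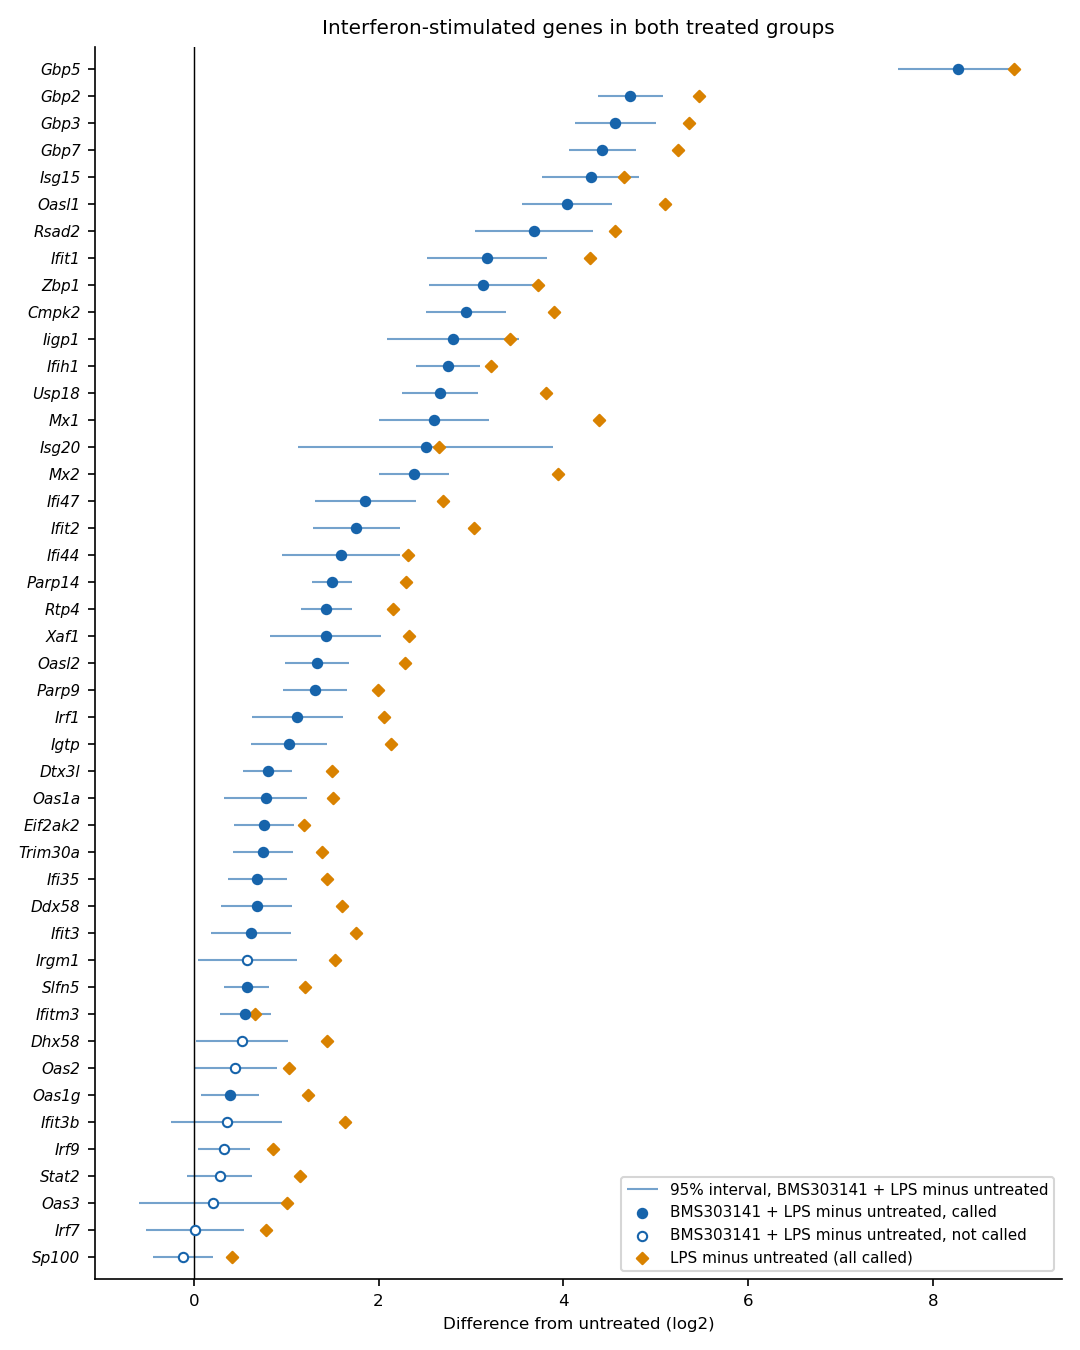
Difference from untreated (x axis, log2) of 45 of the 46 tested interferon-stimulated genes (y axis) in BMS303141 + LPS (circles, filled where called, with the 95% interval) and in LPS alone (diamonds). The circles run from -0.11 for Sp100 to 8.27 for Gbp5 and both sets of differences use the same untreated libraries.

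Genes of resting macrophage identity fell in 25 of 34 tested cases and rose in 4, with a median of -1.03. With LPS alone 27 fell and 4 rose, with a median of -1.23. Cx3cr1, the fractalkine receptor, fell from 8.58, 8.68 and 8.64 to 3.29, 3.73 and 3.11 log2 CPM (-5.25, SE 0.17, adjusted p = 3.14e-11), and Mertk, a receptor for the uptake of dying cells, from 7.22, 7.0 and 7.28 to 2.41, 2.51 and 2.91 (-4.55, SE 0.24, adjusted p = 3.81e-09). The untreated libraries of both genes lay within 0.30 of each other, and no doubly treated library came near them. Csf1r, the receptor for macrophage growth factor, fell 2.66-fold (-1.41, SE 0.12, adjusted p = 4.08e-07) and Lyz2, a lysozyme, 1.91-fold (-0.94, SE 0.13, adjusted p = 4.18e-05). Fcgr2b, the inhibitory antibody receptor, rose against the trend of the list, from 2.76, 2.51 and 2.26 to 7.97, 8.09 and 8.01 (5.51, SE 0.14, adjusted p = 7.84e-12). The other 3 members called higher, named after their values were seen, were the transcription factor genes Tfec (5.88, SE 0.21, adjusted p = 1.17e-10) and Spi1 (0.60, SE 0.10, adjusted p = 2.15e-04) and the lectin gene Siglece (3.31, SE 0.59, adjusted p = 4.85e-04). Of 7 tested genes of alternative activation 4 fell and 1 rose. Pparg, a lipid-sensing nuclear receptor, fell 16.0-fold (-4.0, SE 0.29, adjusted p = 1.05e-07), while Il4ra, the receptor chain for interleukin 4, rose 7.69-fold (2.94, SE 0.10, adjusted p = 4.21e-11).

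Receptors and regulators of G protein signalling held some of the steepest falls, with 12 of 23 tested members lower and 8 higher. With LPS alone 13 were lower and 6 higher than at rest. Rgs2, which shortens the signal of G proteins, was at 8.90, 8.57 and 8.27 in untreated and at 1.38, 0.85 and 2.18 in doubly treated libraries, a 138-fold fall (-7.11, SE 0.29, adjusted p = 3.70e-10; ENSMUSG00000026360, chromosome 1, 143999338 to 144004161 in GRCm38, minus strand). Gpr65, a receptor that senses acid, fell 39.1-fold (-5.29, SE 0.27, adjusted p = 3.49e-09) and Lpar6, a lysophosphatidic acid receptor, 30.6-fold (-4.93, SE 0.32, adjusted p = 3.22e-08). Rises were as steep for Adora2a, a receptor for adenosine, which went from -0.16, 0.85 and 0.02 to 7.21, 7.49 and 7.15 (7.04, SE 0.23, adjusted p = 3.64e-11), and for Hcar2, the niacin receptor, from 1.48, 1.83 and 2.18 to 8.25, 8.19 and 8.16 (6.37, SE 0.17, adjusted p = 8.36e-12). The untreated values of Adora2a and the doubly treated values of Rgs2 rest on few reads, so the sizes of those changes are imprecise. In none of these 5 genes did the groups overlap, which held for 27.2% of all tested genes upward and 32.2% downward. Rgs2, Gpr65 and Lpar6 were chosen among genes without overlap. The falls by level and overlap also took in Mef2c, a transcription factor (-4.99, SE 0.25, adjusted p = 2.70e-09), and the transporter genes Slc37a2 (-4.88, SE 0.13, adjusted p = 9.19e-12) and Slc43a2 (-4.81, SE 0.11, adjusted p = 3.59e-12). Rnd1 rose by 8.44 (SE 0.31, adjusted p = 1.13e-10).

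Lysosomal and autophagy genes fell in 29 of 43 tested cases and rose in 4, with a median of -0.88. Lipa, the acid lipase that frees cholesterol from lipoproteins, fell from 9.05, 9.15 and 9.35 to 6.33, 6.46 and 6.38 (-2.79, SE 0.14, adjusted p = 1.85e-09). Ctsd and Ctsb, proteases of the lysosome, and Lamp1, a membrane protein of it, fell by 1.21, 1.01 and 1.09 on the log2 scale. They are named after their values were seen, as is Tfeb, a transcription factor of lysosomal genes, which fell by 1.44 (SE 0.39, adjusted p = 0.00792). Ctsc, the protease that activates granule enzymes, rose from 5.54, 5.37 and 4.97 to 8.65, 8.61 and 8.37 (3.25, SE 0.19, adjusted p = 1.21e-08). In limma none of the 43 was called against LPS alone, where the median was 0.02 and 7 had an unadjusted p under 0.05. Over all tested genes 2.12% were called in that comparison and 14.9% had an unadjusted p under 0.05.

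Of 28 tested members of glycolysis and the pentose phosphate pathway 13 rose and 7 fell, with a median of 0.49. Over all tested genes 21.5% were called higher and 25.6% lower, so the share lower was near the background. Pfkfb3, whose product activates phosphofructokinase, was at 2.30, 1.95 and 1.56 in untreated, 6.99, 7.64 and 7.66 in LPS and 8.69, 8.84 and 8.85 in doubly treated libraries. The doubly treated libraries were the highest of the 9, 116-fold above rest (6.86, SE 0.20, adjusted p = 1.99e-11), and the difference from LPS of 1.36 (SE 0.20, adjusted p = 0.00377) was kept with every library left out. Slc2a6, a sugar transporter, rose 32.6-fold (5.02, SE 0.24, adjusted p = 1.32e-09). Of the pentose phosphate enzymes, Pgls (-1.26, SE 0.20, adjusted p = 1.90e-04), Taldo1 (-0.90, SE 0.12, adjusted p = 5.71e-05) and Tkt (-0.75, SE 0.17, adjusted p = 0.00246) fell, as did G6pdx, whose call held only without untreated replicate 2 or LPS replicate 1 among the 9 fits with a library left out (adjusted p up to 0.211). Among the glycolysis genes Pfkfb4, Aldoc and Pkm fell, by 0.62, 0.62 and 0.56 on the log2 scale. The call of Aldoc ended without BMS303141+LPS replicate 2 (adjusted p = 0.0504), and that of Pfkfb4 without untreated replicate 1 or any 1 of the doubly treated libraries (adjusted p up to 0.106). These 7 are named after their values were seen. When libraries were centred on ribosomal protein genes 13 rose and 4 fell, and without BMS303141+LPS replicate 2 the number lower was also 4.

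Hypoxia targets rose in 17 of 21 tested cases and fell in 3, with a median of 1.62, against 21.5% higher and 25.6% lower over all tested genes. The genes named here all rose, and the 3 called lower are not among them. In the fit of LPS alone against the same untreated libraries, 11 were called higher and 3 lower, with a median of 0.96. In the direct comparison with LPS alone only 2 of these 21 were called higher (0.959% over all tested genes), with a median of 0.53. That count was 0 without any 1 of the doubly treated libraries. Slc2a1, the GLUT1 glucose transporter, went from 1.98, 1.95 and 1.56 at rest to 6.15, 6.11 and 5.70 with both treatments, with 4.99, 5.56 and 5.35 in the LPS libraries (4.16, SE 0.20, adjusted p = 2.18e-09 from rest). Its difference from LPS of 0.69 (SE 0.20, adjusted p = 0.1155) did not pass the test. Hk2, a hexokinase, rose 3.72-fold (1.90, SE 0.11, adjusted p = 8.47e-09). Hif1a itself, which encodes the hypoxia-inducible factor, rose 3.56-fold (1.83, SE 0.12, adjusted p = 2.44e-08) and is named after its value was seen. Hilpda, which protects lipid droplets from breakdown, held 3.71, 3.85 and 4.29 in untreated, 4.49, 4.20 and 4.50 in LPS and 6.18, 6.13 and 5.92 in doubly treated libraries. It was 2.12 (SE 0.18, adjusted p = 5.20e-07) above rest and 1.68 (SE 0.18, adjusted p = 5.06e-04) against LPS, and the doubly treated libraries were above all other libraries.

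Acly, the gene of the inhibitor's target, was near its resting level (ENSMUSG00000020917, chromosome 11, 100476353 to 100528000 in GRCm38, minus strand). It held 5.37, 5.43 and 5.42 in untreated, 5.08, 5.18 and 5.22 in LPS and 5.05, 5.24 and 4.91 in doubly treated libraries. All doubly treated libraries were below all untreated ones, but the difference of -0.34 (SE 0.14, adjusted p = 0.0566) did not pass the test. The 95% interval ran from -0.63 to -0.04. It passed without LPS replicate 1 (adjusted p = 0.0428), without BMS303141+LPS replicate 2 (adjusted p = 0.0446), with a stricter level filter (adjusted p = 0.0432) and with weights per library (adjusted p = 0.0198). Of the 19 tested genes of acetyl-CoA and fatty acid synthesis 5 rose and 4 fell, with a median of -0.16, shares close to the background of all genes. Acsl1, which activates long-chain fatty acids, rose 11.5-fold (3.52, SE 0.12, adjusted p = 6.92e-11), and Dgat2, which completes triglyceride synthesis, by 5.66 (SE 0.54, adjusted p = 1.75e-06) from untreated values that rest on few reads. Fads1, a fatty acid desaturase named after its value was seen, fell 5.95-fold (-2.57, SE 0.26, adjusted p = 2.51e-06).

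In the cholesterol list 9 of 27 tested genes rose and 4 fell, with a median of 0.23; without BMS303141+LPS replicate 3 the number higher was 5. Acat2, an early enzyme of the pathway, went from 3.87, 3.82 and 4.02 to 5.32, 5.09 and 5.62 (1.45, SE 0.20, adjusted p = 6.55e-05), and Ebp, a late one, from 6.87, 6.62 and 6.54 to 5.93, 5.85 and 5.81 (-0.81, SE 0.13, adjusted p = 1.38e-04). Targets of LXR, the sterol-sensing receptor, fell in 8 of 14 cases and rose in 2, with a median of -0.71. With LPS alone 9 fell and 1 rose, with a median of -0.80. Rab7b, a small GTPase of late endosomes, fell 27.4-fold (-4.78, SE 0.15, adjusted p = 2.77e-11). Arl4c, another small GTPase, held 8.16, 7.84 and 8.09 at rest, 4.90, 5.07 and 5.08 with both treatments and 3.82, 3.0 and 3.75 with LPS. It lay between the other groups, -3.01 (SE 0.20, adjusted p = 3.52e-08) from rest and 1.5 (SE 0.20, adjusted p = 0.00185) against LPS. Abca1, the cholesterol exporter, was one of the members called higher (1.34, SE 0.17, adjusted p = 2.61e-05); it is named after its value was seen.

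Mitochondrial genes showed small differences near the background. Tricarboxylic acid cycle genes were higher in 6 and lower in 7 of 26 cases, and nuclear-encoded genes of oxidative phosphorylation were higher in 8 and lower in 8 of 42. Their medians were -0.04 and 0.09; the first became 0.02 when libraries were centred on ribosomal protein genes, and the number of oxidative phosphorylation genes called higher was 3 without untreated replicate 2 or BMS303141+LPS replicate 1, 4 without untreated replicate 3 or BMS303141+LPS replicate 2, and 5 without BMS303141+LPS replicate 3. Mdh1 is on the first list but encodes the cytosolic malate dehydrogenase, not a mitochondrial enzyme. It fell 2.2-fold (-1.14, SE 0.12, adjusted p = 6.23e-06), and Sdhb, a subunit of succinate dehydrogenase, 1.78-fold (-0.83, SE 0.10, adjusted p = 1.74e-05). Uqcrh of complex III and Atp5c1 of the ATP synthase fell by 0.85 and 0.69 on the log2 scale. Of 9 mitochondrially encoded messenger RNAs 1 was called, mt-Nd5, at -0.68 (SE 0.11, adjusted p = 1.49e-04); 2 were lower without untreated replicate 3 or LPS replicate 1, and 1 was higher without untreated replicate 1 or 3. Cytosolic ribosomal proteins fell in 18 of 49 cases and rose in 5; centred on those genes themselves 13 fell and 8 rose. The number of ribosomal protein genes called higher was 11 without LPS replicate 1, and 1 or 2 without untreated replicate 2 or 3 or any 1 of the doubly treated libraries. Rplp1 fell by 0.73 (SE 0.10, adjusted p = 3.49e-05).

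Antioxidant genes of the NRF2 pathway rose in 14 of 24 tested cases and fell in 3, with a median of 0.55. Hmox1 encodes heme oxygenase, which breaks down heme. It held 7.07, 7.35 and 7.49 in untreated, 7.81, 7.56 and 7.75 in LPS and 9.22, 9.49 and 9.71 in doubly treated libraries. The doubly treated libraries stood apart from the other 6, 4.51-fold above rest (2.17, SE 0.14, adjusted p = 3.68e-08) and 1.77 (SE 0.14, adjusted p = 6.54e-05) against LPS. Gsr, glutathione reductase, rose from 4.07, 3.91 and 3.89 to 7.33, 7.37 and 7.42 (3.42, SE 0.12, adjusted p = 8.80e-11). Slc7a11, the cystine transporter that supplies glutathione synthesis, went from 2.68, 2.05 and 1.40 at rest to 10.49, 10.46 and 10.35 with both treatments, a 335-fold rise (8.39, SE 0.25, adjusted p = 1.99e-11). Gclc and Gclm, which encode the enzyme of the first step of glutathione synthesis, did not pass the test, with differences of -0.20 and -0.05; both are named after their values were seen. The number of NRF2 genes called lower was 5 without LPS replicate 1 and 1 without BMS303141+LPS replicate 1 or 3.

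Slc7a11 is also a known target of ATF4, the factor of the integrated stress response, which cells mount when amino acids run short or proteins misfold. Its promoter is shown because it holds the composite ATF4 motif TGATGNAA on both strands; the run is the 130 bases before the start site (RefSeq, GRCm38.p6), 5′ to 3′ on the gene's strand, with the matches in capitals.
Slc7a11, chr3:50443614-50443743, minus strand: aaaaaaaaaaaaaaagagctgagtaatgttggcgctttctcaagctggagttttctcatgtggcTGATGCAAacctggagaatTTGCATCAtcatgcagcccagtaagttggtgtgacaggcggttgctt
The matches begin 66 and 47 bases before the start. The motif was found in 2.06% of the 250-base windows of tested protein-coding genes, in 2.71% of those of genes called higher than at rest, and in 6 of 25 windows (24.0%) of the integrated stress response list.

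Integrated stress response genes rose in 16 of 26 tested cases and fell in 3, with a median of 1.21. Nupr1, a stress-induced chromatin protein, went from 3.27, 2.43 and 2.68 to 7.38, 7.06 and 7.34 (4.46, SE 0.21, adjusted p = 1.29e-09), and Cebpb, a transcription factor, from 4.88, 5.06 and 5.37 to 8.02, 8.38 and 8.03 (3.04, SE 0.16, adjusted p = 5.00e-09). Both pairs of groups were clearly apart. Atf4 itself rose by 0.99 (SE 0.16, adjusted p = 2.64e-04), while Atf3 and Ddit3, which encode factors of the same response, fell by 1.34 and 0.87; these 3 are named after their values were seen. In limma none of the 26 was called against LPS alone, where 3 had an unadjusted p under 0.05. The shares over all tested genes were 2.12% and 14.9%. The unfolded protein response had 4 of 23 higher and 8 lower, with a median of -0.04 that became 0.02 with ribosomal protein centring, and 2 were higher without untreated replicate 2 or BMS303141+LPS replicate 3. Against rest, the shares over all tested genes were 21.5% higher and 25.6% lower. Herpud1, a part of the degradation machinery of the endoplasmic reticulum, rose 8.22-fold (3.04, SE 0.16, adjusted p = 5.29e-09), and the disulfide isomerase gene Pdia4 fell 2.33-fold (-1.22, SE 0.12, adjusted p = 1.61e-06).

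The heat shock list had 8 of 21 members higher and 3 lower, with a median of 0.32. Hsp90aa1, the inducible HSP90, rose 1.88-fold (0.91, SE 0.09, adjusted p = 2.75e-06), and Stip1, its cochaperone, 2.46-fold (1.30, SE 0.14, adjusted p = 4.70e-06). Hspa1a, the inducible HSP70, held 0.45, -0.79 and 0.64 at rest and 1.03, 2.02 and 0.88 with both treatments (1.21, SE 0.56, adjusted p = 0.0944), values that rest on few reads, and is named after they were seen. Targets of p53 were higher in 8 and lower in 7 of 23 cases, with a median of -0.05 that became 0.02 with ribosomal protein centring. Beside these counts stand 21.5% higher and 25.6% lower over all tested genes. Gadd45a, a growth arrest gene, rose 8.73-fold (3.13, SE 0.16, adjusted p = 4.20e-09) and the death receptor gene Fas 28.1-fold (4.81, SE 0.32, adjusted p = 4.76e-08). Survival and apoptosis regulators rose in 13 of 31 cases and fell in 5, or in 3 without untreated replicate 3 or BMS303141+LPS replicate 1. Nlrp3, the inflammasome sensor, rose 12.4-fold (3.63, SE 0.12, adjusted p = 4.62e-11) and Cflar, an inhibitor of caspase 8, 8.33-fold (3.06, SE 0.11, adjusted p = 9.80e-11).

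Cell cycle genes fell in 11 of 27 tested cases and rose in 2, with a median of -0.88. Ccnd1, cyclin D1, which macrophage growth factor induces, went from 7.03, 6.94 and 6.85 to 0.83, 1.69 and 0.31, a 63.8-fold fall (-5.99, SE 0.33, adjusted p = 6.83e-09). The doubly treated values of Ccnd1 rest on few reads, so that fold is imprecise. Mki67, a proliferation marker, moved against the list, from 3.31, 3.45 and 3.92 to 6.50, 6.31 and 6.51 (2.88, SE 0.16, adjusted p = 7.81e-09). The other member called higher was Ccnd2, cyclin D2 (1.04, SE 0.13, adjusted p = 2.97e-05), named after its value was seen. LPS alone against rest gave 13 of 27 members lower and 4 higher, and Mki67 rose there by 3.67. E2f2 was at the lowest value in all doubly treated libraries and at 1.92, 2.22 and 2.07 at rest, so no fold is given. In all, 8 genes called lower were at the lowest value in every doubly treated library.

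Genes of antigen presentation and costimulation rose in 12 of 26 cases and fell in 1 (2 without untreated replicate 1), with a median of 0.47. Cd40, a costimulatory receptor, went from 1.15, 2.51 and 2.18 to 8.51, 8.82 and 8.34 (6.61, SE 0.34, adjusted p = 3.00e-09), and Cd274, the PD-L1 ligand that restrains T cells, from 1.15, 1.37 and 2.07 to 7.62, 7.48 and 7.23 (5.92, SE 0.23, adjusted p = 2.16e-10). Histone acetylation enzymes fell in 13 of 31 cases and rose in 3, with a median of -0.35. With LPS alone 15 fell and 2 rose from rest, with a median of -0.41. In the direct comparison with LPS alone 1 was called higher and 0 lower, with a median of -0.03. Hdac5, a deacetylase, fell from 4.35, 4.94 and 4.65 to 1.38, 1.40 and 1.60 (-3.19, SE 0.27, adjusted p = 5.32e-07), and the coactivator gene Ncoa3 fell 3.02-fold (-1.60, SE 0.17, adjusted p = 4.53e-06). The LPS libraries held 1.17, 0.85 and 0.88 for Hdac5. Immediate early genes divided, with 9 of 20 higher and 7 lower. Ier3 rose from 4.62, 4.31 and 5.14 to 10.42, 10.27 and 10.30 (5.64, SE 0.17, adjusted p = 2.77e-11), while Fos, a subunit of the AP-1 factor, fell from 8.44, 8.90 and 8.96 to 4.65, 4.70 and 5.0 (-3.98, SE 0.16, adjusted p = 3.11e-10).

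**Figure D4:**
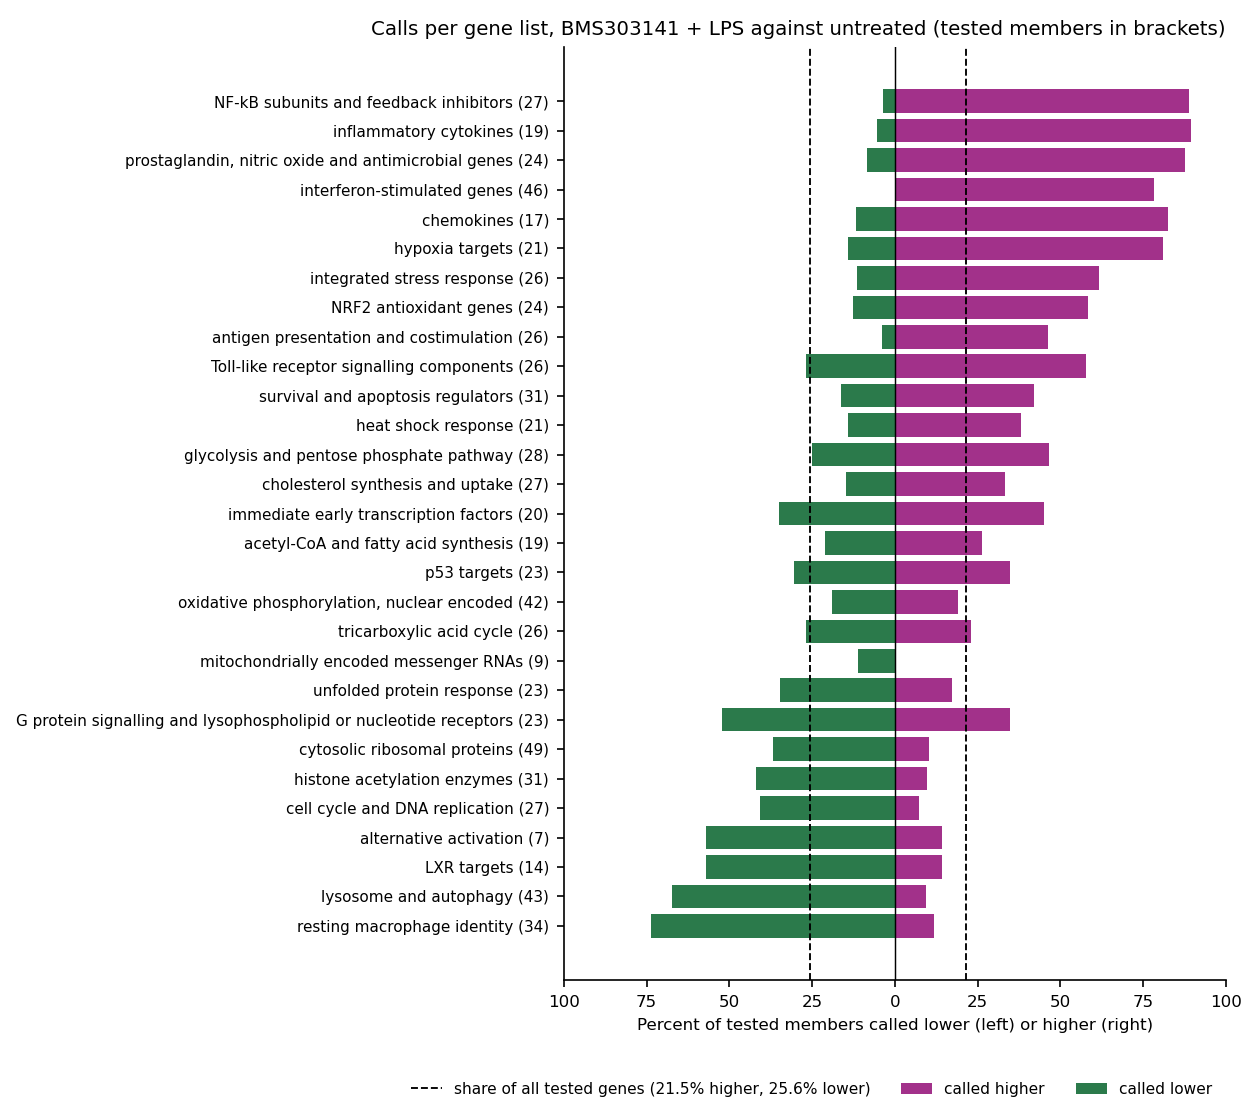
Percent of the tested members of each gene list that limma called lower (left, green) or higher (right, purple) in BMS303141 + LPS than in untreated macrophages; the number tested is in brackets. Dashed lines mark the shares over all tested genes, 25.6% lower and 21.5% higher; the cytokine list reaches 17 of 19 higher and the resting macrophage list 25 of 34 lower.

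A further set of genes stood outside the range of both other groups. Besides Hmox1, Hilpda and Il10, these were Ggta1 and S100a8 above and Arhgap22, Tmcc3, Blnk, Cited2 and Rasgef1b below, chosen by the size of the smaller of the differences. Ggta1, a galactosyltransferase, held 5.72, 5.76 and 5.97 in untreated, 5.77, 5.66 and 5.77 in LPS and 7.44, 7.41 and 7.57 in doubly treated libraries. Untreated and LPS libraries overlapped, and the doubly treated cells were 3.16-fold above rest (1.66, SE 0.12, adjusted p = 8.26e-08; 1.74, SE 0.12, adjusted p = 1.85e-05 against LPS). Arhgap22, which inactivates Rac, held 6.22, 6.28 and 6.13 at rest, 4.76, 5.03 and 4.53 with LPS and 3.26, 3.55 and 2.56 with both treatments, a difference of -3.09 (SE 0.23, adjusted p = 1.22e-07) from rest. Tmcc3 held 5.11, 5.15 and 5.22 at rest, 5.21, 4.93 and 4.82 with LPS and 3.92, 3.71 and 3.62 with both treatments, and the doubly treated libraries were below all others (-1.41, SE 0.16, adjusted p = 9.63e-06 from rest). Blnk, an adaptor of B cell and macrophage receptors, fell 3.81-fold from rest (-1.93, SE 0.14, adjusted p = 1.26e-07). Rasgef1b, a gene that LPS is known to induce, held 6.06, 5.94 and 5.85 in untreated, 6.70, 6.93 and 6.57 in LPS and 5.02, 5.43 and 4.73 in doubly treated libraries. It was thus above rest with LPS alone and below rest with both treatments (-0.89, SE 0.17, adjusted p = 7.92e-04 from rest; -1.68, SE 0.17, adjusted p = 4.82e-04 against LPS). Calls against LPS were kept with every library left out for Hmox1, Hilpda, Ggta1, S100a8, Arhgap22, Tmcc3, Blnk and Rasgef1b. Cited2, a regulator of CBP and p300, was -2.55 (SE 0.21, adjusted p = 4.69e-07) from rest. Its difference of -0.96 (SE 0.21, adjusted p = 0.0339) against LPS was not called without untreated replicate 2, LPS replicate 1 or 3, or any 1 of the doubly treated libraries (adjusted p up to 0.171).

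Other genes lay between rest and LPS alone. Zfp36l1, which speeds the decay of messenger RNAs, held 8.01, 7.60 and 7.58 at rest, 6.29, 5.97 and 6.04 with both treatments and 3.65, 4.14 and 4.17 with LPS (-1.63, SE 0.17, adjusted p = 4.68e-06 from rest; 2.11, SE 0.17, adjusted p = 6.54e-05 against LPS). The 3 groups did not overlap, and the call against LPS was kept with every library left out. Rassf2, a Ras-association protein, was -1.63 (SE 0.17, adjusted p = 4.37e-06) from rest and 1.42 (SE 0.17, adjusted p = 0.00122) against LPS. Cerk, ceramide kinase, was -2.72 (SE 0.20, adjusted p = 1.05e-07) from rest; its difference of 1.05 (SE 0.20, adjusted p = 0.0148) against LPS was not called without BMS303141+LPS replicate 1 or 3 (adjusted p up to 0.0869). Ccrl2, an atypical chemoattractant receptor, was 4.92 (SE 0.26, adjusted p = 4.77e-09) from rest and -1.37 (SE 0.26, adjusted p = 0.0163) against LPS, a call that ended without LPS replicate 2 or BMS303141+LPS replicate 1 or 3 (adjusted p up to 0.0794). Irf8, a myeloid transcription factor named after its values were seen, was -0.95 (SE 0.11, adjusted p = 1.36e-05) from rest and 1.10 (SE 0.11, adjusted p = 4.82e-04) against LPS.

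Some genes that LPS alone had moved were within 2-fold of rest in doubly treated cells, by the 95% interval of the difference. Abi3, an adaptor of actin regulation, held 5.07, 5.11 and 4.80 at rest, 3.18, 2.64 and 3.18 with LPS and 5.06, 4.63 and 4.95 with both treatments. The untreated and doubly treated libraries overlapped, and their difference was -0.11 (95% interval -0.55 to 0.32). Irf2bpl, a nuclear protein gene, differed from rest by 0.20 (95% interval -0.18 to 0.58), with 6.26, 5.93 and 5.60 in untreated, 4.49, 4.85 and 4.91 in LPS and 6.01, 6.13 and 6.24 in doubly treated libraries. Fabp4, a fatty acid carrier, and the less described AI467606 and Gm37420 were at 0.26, -0.13 and -0.31 from rest. Their differences from LPS were 1.39, 1.89 and 1.20, with adjusted p up to 0.123, 0.0632 and 0.147 when a library was left out; each of these calls ended without any 1 of the doubly treated libraries, that of Fabp4 also without LPS replicate 1 or 2, and that of Gm37420 also without untreated replicate 2 or LPS replicate 3.

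Raised by LPS alone and nearer to rest with both treatments were Frmd6, Ddhd1, Trim21, Rcsd1 and Rin3. Trim21, an antibody receptor inside the cell, held 3.31, 3.49 and 3.42 in untreated, 5.49, 5.52 and 5.34 in LPS and 3.76, 4.08 and 4.05 in doubly treated libraries. It remained 0.56 (SE 0.16, adjusted p = 0.0135) above rest, with no overlap, a call lost without BMS303141+LPS replicate 2 (adjusted p = 0.0557). Rcsd1, which binds actin capping protein, held 4.24, 4.51 and 3.75 at rest, 6.16, 6.07 and 5.93 with LPS and 4.62, 4.73 and 4.42 with both treatments, and its difference from rest of 0.42 (SE 0.19, adjusted p = 0.0854) did not pass except without untreated replicate 2. Ddhd1, a phospholipase, and Rin3, an activator of Rab5, were 0.56 and 0.53 above rest, calls that ended without untreated replicate 2 or BMS303141+LPS replicate 2 for both, without BMS303141+LPS replicate 1 for Ddhd1 and without untreated replicate 1 for Rin3 (adjusted p up to 0.0898 and 0.112). Frmd6, a membrane-cytoskeleton linker, was at 0.10 (SE 0.33, adjusted p = 0.827) from rest. All 5 were lower than with LPS alone, by 1.64, 1.59, 1.49, 1.46 and 1.40 on the log2 scale, and the call of Frmd6 ended without LPS replicate 2 or BMS303141+LPS replicate 1 or 3.

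**Figure D5:**
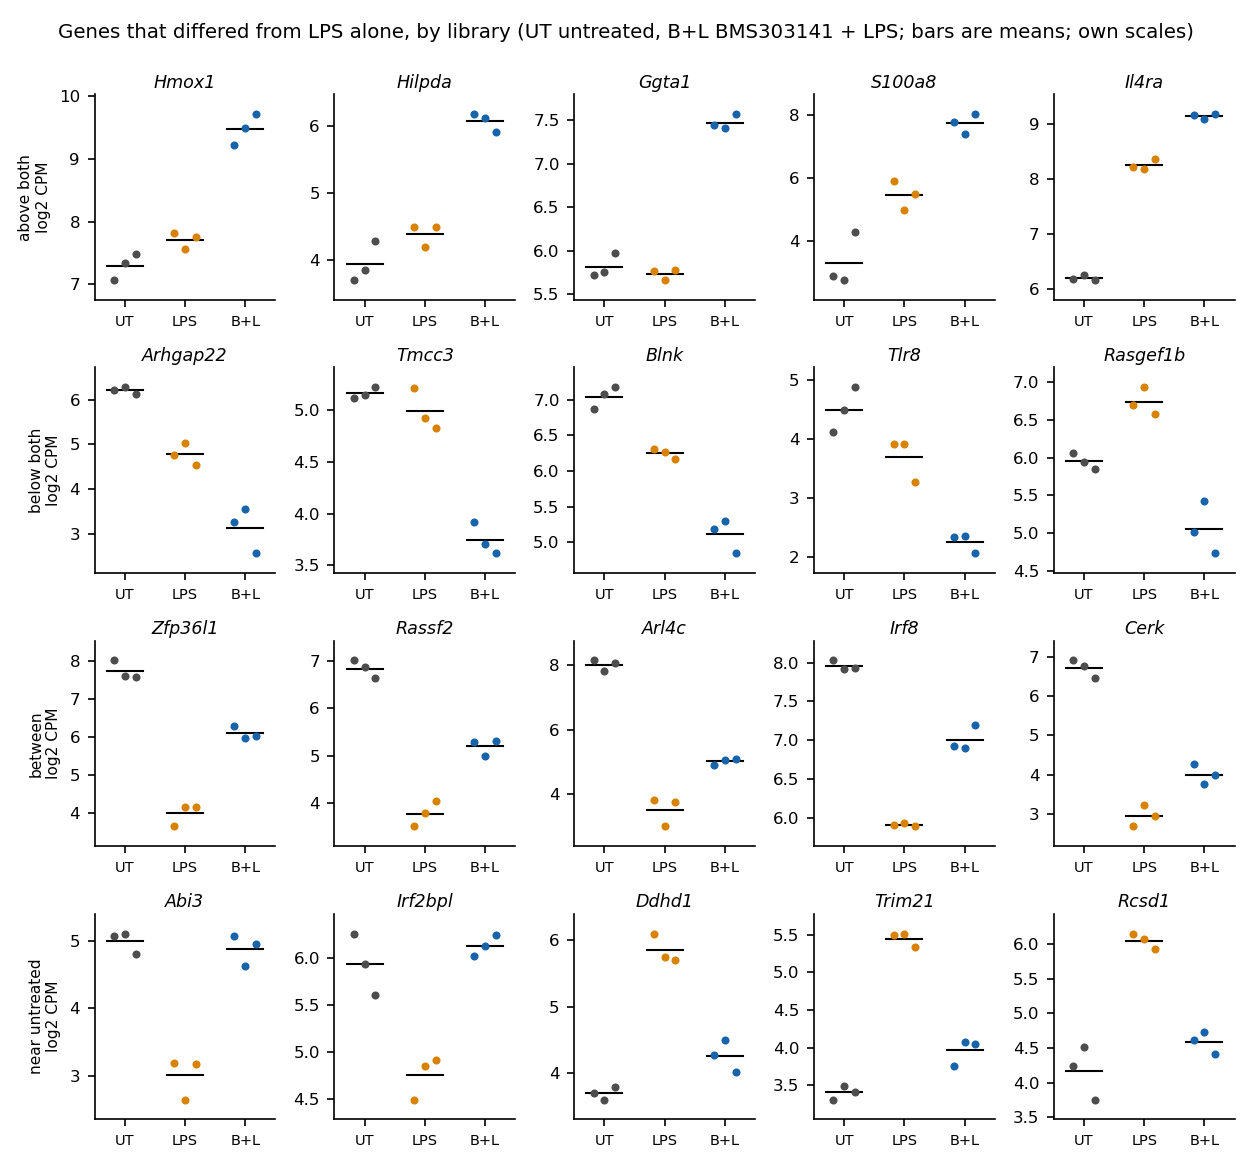
Deposited log2 CPM (y axis, a separate scale per gene) of 20 genes that were called against LPS alone, in untreated (UT), LPS and BMS303141 + LPS (B+L) libraries; points are libraries and bars are group means. From the top, rows hold genes above both other groups, below both, between them, and within 2-fold of rest: Hmox1 reaches 9.22, 9.49 and 9.71 in doubly treated libraries and Abi3 stays at 5.06, 4.63 and 4.95.

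Markers of other cell types were few. Of 12 neutrophil markers 4 were among the tested genes, and Ly6g, Elane and Mpo, which define that cell, were not analysed here. S100a8, a calcium-binding alarm protein that myeloid cells also induce, held 2.88, 2.74 and 4.27 in untreated, 5.90, 4.99 and 5.50 in LPS and 7.80, 7.42 and 8.04 in doubly treated libraries (4.45, SE 0.34, adjusted p = 1.97e-07 from rest; 2.29, SE 0.34, adjusted p = 0.00377 against LPS). Csf3r, the receptor for granulocyte growth factor, rose by 2.99 (SE 0.32, adjusted p = 5.40e-06), and Mmp8, a collagenase named after its values were seen, by 1.84 (SE 0.28, adjusted p = 1.36e-04). S100a9, the partner of S100a8, did not pass, with -1.17, 0.25 and 3.37 in untreated and 2.74, -0.06 and -0.05 in doubly treated libraries (0.05, SE 1.01, adjusted p = 0.969). The 4 markers summed to between 12.7 and 36.0 CPM in untreated, 45.5 and 74.8 in LPS and 195 and 285 in doubly treated libraries, and their part in these rises was not tested.

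Of the 10 markers of mast cells and basophils only Hdc was tested, the histamine-forming enzyme that macrophages can also induce. It went from 1.15, 1.37 and 1.25 to 6.17, 6.27 and 5.92 (4.86, SE 0.15, adjusted p = 3.21e-11). Of 9 dendritic cell markers only Itgax was tested, at 1.75, 1.61 and 2.07 in untreated and 2.41, 2.42 and 2.25 in doubly treated libraries (0.55, SE 0.27, adjusted p = 0.104). No B cell or erythroid marker was tested. Of 9 T and NK cell markers only Lck was tested (0.15, SE 0.67, adjusted p = 0.875). Of 5 tested stromal markers of 10, 1 was called, Pdgfrb, listed at the lowest value throughout the untreated group and at 1.66, 1.56 and 0.88 in doubly treated ones. The 5 stromal markers summed to between 7.67 and 17.8 CPM at rest and between 8.51 and 17.1 CPM with both treatments, and Sparc, the most abundant, did not pass (-0.53, SE 0.43, adjusted p = 0.335).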

How the data were processed

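Messenger RNA of 9 libraries of mouse bone marrow-derived macrophages was sequenced from the 3′ end, with 100 ng of total RNA and 16 PCR cycles per the labels' protocols. Per the submitters' processing notes the tools were featureCounts 1.5.1, STAR 2.5.2b, edgeR, limma and MultiQC, with GRCm38; how each was set is not given in these sources. The authors deposited 1 table of log2 CPM values, recorded here as a score because it is normalised further: the values of the libraries share 1 distribution, which is read from the values as quantile normalisation. A shift shared by most genes is therefore not visible, and levels of different genes are not per length and were not compared. Depth was estimated from the steps between low values and is approximate, and PCR copies were not separable from molecules. Genes of similar sequence may share or lose reads.

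Of the 12204 genes listed, 12181 had a symbol. The 12196 genes that reached log2 CPM 0 in 3 or more libraries were fitted with limma 3.58.1 in R 4.3.3 (lmFit, then eBayes with a mean trend) with all 3 groups in 1 model, and p-values were adjusted by Benjamini-Hochberg over all of them, with 0.05 as the threshold. The code was tested on simulated data. Genes at a library's lowest value in a whole group are given with no fold. Promoter windows came from the RefSeq table of GRCm38.p6 and motifs were searched on both strands; some motif matches overlap.

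The gene lists and the genes described were chosen with earlier results of these data known. Genes were named by 5 rules: the 10 largest rises and 10 largest falls without overlap between groups whose mean reached the median of tested genes; the 2 called members of each list with the smallest p and the most abundant member of each cell type list; 12 genes chosen by name; the 5 genes farthest from both other groups in each combination of directions; and, among genes called and at least 2-fold changed by LPS alone and called against LPS, the 5 with the largest difference from LPS in each direction whose 95% interval against untreated lay within 2-fold. The rule of largest rises and falls and the rule of genes farthest from both groups left out predicted genes and genes with clone names. The latter rule also asked for a mean at or above that median. Other genes are marked as named after their values were seen, or are members given to complete a count. Alternatives were the replicate number as a block, other filters, centring on the median or on ribosomal protein genes, no mean trend, only 2 groups, weights per library, and leaving out each library. A few genes are not reported here.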

Additional observations from a re-analysis of the deposited data

How the results depend on the processing

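The number of genes called between doubly treated and untreated cells (5747) stayed within 1.5 times under all alternatives run, from 4721 with the stricter level filter to 6860 with weights per library, and from 4795 to 6411 with 1 library left out (2153 to 2945 higher, 2610 to 3466 lower). Of 193 described genes called there, 182 kept the call with every library left out, and no described gene changed direction while called. Centring on ribosomal protein genes gave 2723 higher and 2579 lower. The comparison with LPS alone (258) rests on few libraries: with 1 left out it gave 62 to 318 calls, 27 to 140 higher and 35 to 178 lower, and 29 of 64 described genes kept the call throughout. Without a mean trend it gave 99 calls (43 higher, 56 lower), with weights per library 814 (407 in each direction), and with ribosomal protein centring 59 higher and 124 lower, a share higher of 32.2% against 45.3%; the cause was not tested. Replicate numbers are shared between groups, but the correlation of deviations of same-numbered libraries ran from -0.297 to 0.165, so the numbers were not taken to pair samples; with the replicate block 5558 genes were called, 5482 of them also called without it in the same direction. LPS replicate 1, the shallowest library, and low untreated counts limit the precision of large rises. Low counts in doubly treated libraries limit that of large falls.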

Other observations

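The share of genes called lower than at rest varied with the kind of gene. Of 9934 protein-coding genes 2168 (21.8%) were called higher and 2879 (29.0%) lower in doubly treated cells, with a median of -0.12. Processed pseudogenes are copies of messenger RNAs without introns. Of 1259 of them 263 (20.9%) were called higher and 64 (5.08%) lower, with a median of 0.35. Their share called higher was thus close to that of protein-coding genes, and their share called lower was smaller. The share called lower was smaller for pseudogenes in each of 5 equal bins of mean level, at 2.2% against 28.2% in the lowest bin and 23% against 33.1% in the highest. The share called higher was larger for pseudogenes in the lower 3 bins, at 17.1% against 13.7% in the lowest, and smaller in the upper 2, at 21.4% against 25.4% and 11.1% against 29.9%. In the highest bin more pseudogenes were thus called lower than higher. LPS alone against the same untreated libraries gave 292 pseudogenes higher (23.2%) and 56 lower (4.45%). The shares of protein-coding genes there were 21.3% higher and 29.1% lower. Processed pseudogenes may share reads with their parent genes, and whether that takes part in the difference was not tested.

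Small nuclear RNAs, which act in splicing and other steps, were called lower in 16 of 31 cases and higher in 1, with a median of -0.81. These RNAs mostly lack the poly(A) tail that 3′ libraries start from, so what these values measure is uncertain. LPS alone against untreated gave 5 of 31 lower and 1 higher, and the direct comparison of doubly treated cells with LPS alone called none of the 31, with a median of -0.43. Over all tested genes 25.6% were called lower than at rest and 21.5% higher. A fall was also seen in genes annotated as miscellaneous RNA. Of these 16 genes 10 (62.5%) were called lower and 0 higher, with a median of -1.67. Small nucleolar RNAs did not share it, with 7 of 29 lower (24.1%) and 5 higher (17.2%), near the shares over all genes. Of 33 microRNAs 3 were lower (9.09%) and 1 higher (3.03%), both below those shares.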
